A study of Mus musculus with 21 samples.

Results

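Secreted and membrane-bound effector molecules of T cells were followed through 9 genes of the 17516 gene symbols listed in every library: Ifng, Tnf, Lta, Ltb, Il2, Csf2, Osm, Fasl and Spp1, where Spp1 encodes osteopontin. They were taken by name, from a list drawn up with earlier results of these data known. RNA was counted in single CD8 T cells from OT1 mice, a T cell receptor transgenic line whose T cells recognise an ovalbumin peptide, so that all libraries share that receptor. Naive cells (day 0, no treatment) made 1 library. All other cells were activated on day 0 with anti-CD3 and anti-CD28 beads. They were then cultured without cytokine (days 3 and 5) or with IL-2, IL-15 or IL-2v at 5 or 50 IU/mL (days 3, 5 and 10), which gave 2 and 18 libraries. IL-2v is an IL-2 variant that the labels call mutant IL-2bg. Each condition had 1 library, no label names separate animals, and the titles were followed where 6 treatment labels name another interleukin (interleukin-3 for 50 IU/mL IL-2, interleukin-16 for 50 IU/mL IL-15). The protocol text for extraction describes a sort from tumours, and the libraries were read as cultured cells.

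Effector cytokines act on neighbouring cells. Interferon gamma (Ifng) activates macrophages and raises antigen presentation. Tumour necrosis factor (Tnf), lymphotoxin alpha (Lta) and lymphotoxin beta (Ltb) belong to the TNF family and lie side by side in the genome, and Fas ligand (Fasl), of the same family, triggers death of cells that carry Fas. IL-2 (Il2) feeds T cell growth, GM-CSF (Csf2) acts on myeloid cells, oncostatin M (Osm) is a cytokine of the IL-6 family, and osteopontin (Spp1) is a secreted ligand of integrins and CD44. In T cells most of these genes are transcribed in bursts after the T cell receptor is engaged, through NFAT, AP-1 and NF-kB, and cytokine receptors that signal through STAT5 add to or hold back that programme.

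Depth was 10589950 to 32648496 unique molecular identifiers (UMIs, tags that each mark 1 captured RNA molecule) per library, over 3250 to 7105 cells. Markers of CD8 T cells summed to between 2761 and 6157 CPM (a gene's UMIs in each 1000000 UMIs of its library). Markers of other cells summed to at most 17.9 CPM for B cells (7 genes), 13.1 for CD4 T cells (3), 3.19 for dendritic cells (4), 3.15 for erythroid cells (3) and 0.55 for fibroblasts or osteoblasts (4). The 4 gamma delta T cell genes summed to 59.0 to 335 CPM, the 12 myeloid genes to 70.3 to 238 CPM and the 7 NK cell genes, which include Gzma, to 10.3 to 5490 CPM. Any 2 libraries shared 1 to 19 cell barcodes. Intervals below are exact 95% intervals and cover counting error only, since no condition was repeated, and no p-value was computed. A gene was taken to be at the detection floor of a library where it had 3 UMIs or fewer.

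The members fell into distinct ranges. Ltb was the only member at 20 CPM or more in all 21 libraries. Tnf and Lta reached 20 CPM in 7 libraries each, Osm in 6, Fasl in 4 and Spp1 in 2, while Ifng, Il2 and Csf2 stayed under 10 CPM in all 21. At the detection floor stood Csf2 in 1 library (5 IU/mL IL-15 on day 10, 0 UMIs) and Spp1 in 2 libraries (5 IU/mL IL-15 on day 10, 0 UMIs, and 50 IU/mL IL-15 on day 10, 2 UMIs). The other 7 members were above the floor in all libraries. To show what transcripts foreign to a CD8 T cell give, 9 genes of other lineages were read the same way. Their median was 0 CPM and their highest value 0.921 CPM (C1qa, a macrophage gene, in naive cells). Csf2 was at or under the highest of these genes of its own library in 2 libraries and Spp1 in 4, and those values are read as background.

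**Figure D1:**
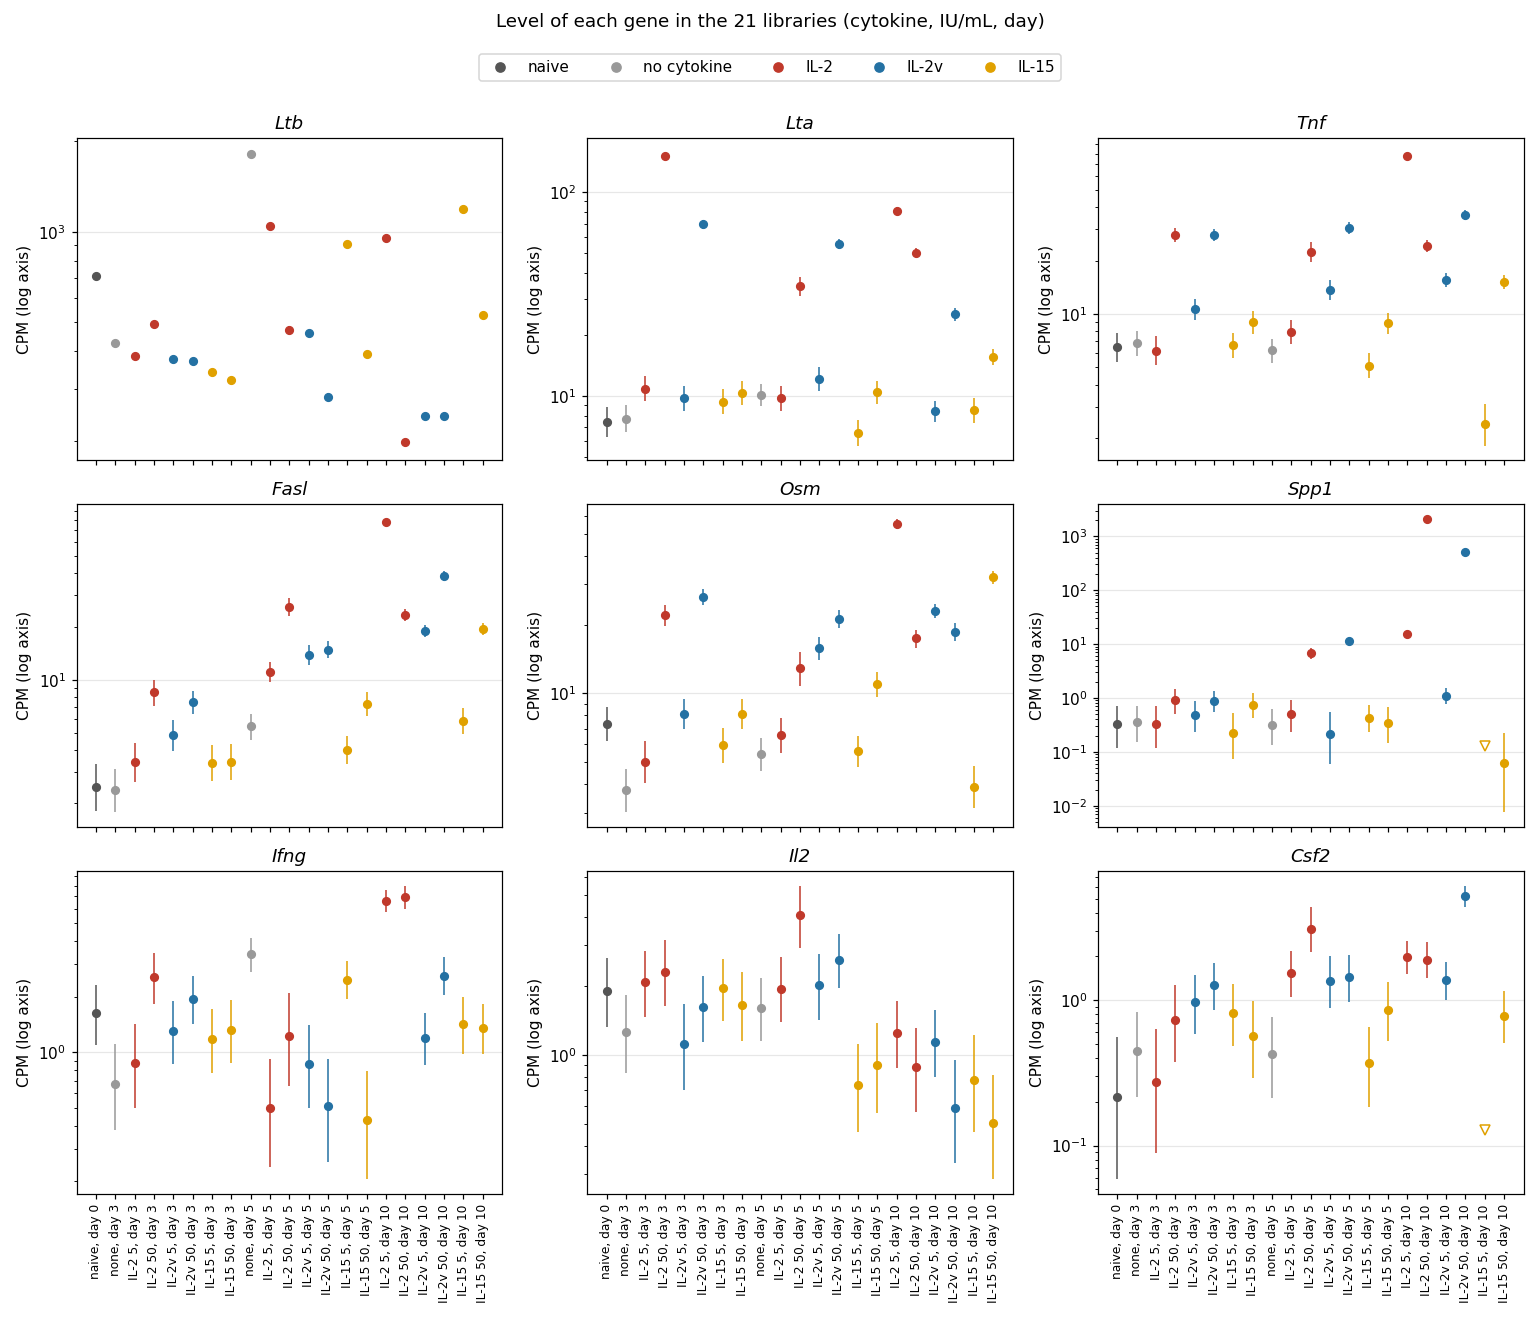
Level of each of the 9 genes in the 21 libraries, in CPM on log axes that differ between panels; each point is 1 library with its exact Poisson 95% interval, and an open triangle marks 0 UMIs, drawn at the level of 3 UMIs. The 5 IU/mL IL-2 library of day 10 is the highest for Tnf (77.9 CPM), Osm (55.2) and Fasl (77.7), and Spp1 reaches 2064 and 501 CPM in 2 libraries of day 10.

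Ifng, Il2 and Csf2 were scarce throughout. Ifng ran from 0.429 CPM (50 IU/mL IL-15, day 5) to 6.93 CPM (50 IU/mL IL-2, day 10), with a median of 1.32 over the libraries. Its 2 highest libraries, 6.93 CPM (5.98 to 7.99) and 6.62 CPM (5.73 to 7.61), were both grown in IL-2 to day 10 and overlap each other, and all 19 others lay at 3.39 CPM or less. At most 2.61% of cells in a library had an Ifng UMI. In 2 libraries 1 cell carried much of it, 38 of 74 UMIs with 5 IU/mL IL-15 on day 5 and 26 of 87 without cytokine on day 5. In the 2 highest libraries it was spread over more cells, with 189 UMIs in 129 cells (50 IU/mL IL-2) and 197 UMIs in 155 cells (5 IU/mL IL-2), and at most 9 and 4 in 1 cell. Of the 20 neighbouring pairs in the order of Ifng levels, 19 had overlapping intervals.

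Il2 ran from 0.502 to 4.06 CPM over all libraries and summed to 685 UMIs, and all 20 neighbouring pairs in its order overlapped. Its highest values were 4.06 CPM (2.94 to 5.47) with 50 IU/mL IL-2 and 2.60 CPM (1.97 to 3.38) with 50 IU/mL IL-2v, both on day 5. On day 10 the 6 libraries lay between 0.502 and 1.24 CPM. The Il2 gene overlaps Adad1 on the opposite strand, and Csf2 overlaps the antisense gene Gm12223, so that reads of these partners could not be told apart if strand was not used, which is not given in the sources used here.

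Csf2 ran from 0 to 5.20 CPM and summed to 596 UMIs. Its highest library was 50 IU/mL IL-2v on day 10, at 5.20 CPM (4.382 to 6.13), followed by 50 IU/mL IL-2 on day 5 at 3.12 CPM (2.15 to 4.376), whose interval ends just short of it. Naive cells had 0.217 CPM from 4 UMIs. In the 5 IU/mL IL-15 library of day 10, 0 UMIs over 5451 cells allow a share of cells with a UMI of up to 0.055%, by the limit of 3 counts.

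The lymphotoxin and TNF genes share 1 locus on chromosome 17. In GENCODE vM21 (GRCm38, the assembly also called mm10 in the submitters' processing notes), Ltb lies at chr17:35194439-35196320 on the plus strand, Tnf at chr17:35199381-35202007 and Lta at chr17:35203165-35205351, both on the minus strand. The gaps are 3060 bases from Ltb to Tnf and 1157 bases from Tnf to Lta. Osm lies at chr11:4236420-4241026, Fasl at chr1:161780689-161788495, Spp1 at chr5:104435118-104441050, Ifng at chr10:118441046-118445892, Il2 at chr3:37120523-37125959 and Csf2 at chr11:54247271-54249667. Despite their closeness, the 3 genes of the locus did not follow 1 order over the libraries. The Pearson correlation of log2(CPM + 1) over the 21 libraries, a description of points that differ in depth and share culture conditions, was 0.84 for Tnf and Lta, −0.38 for Tnf and Ltb and −0.22 for Lta and Ltb.

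Promoters were read from RefSeq (GRCm38.p6), 250 bases before each start site, since IL-2, IL-2v and IL-15 all signal to STAT5. Promoters of 8 of the 9 members were matched, and Osm was not. RefSeq start sites need not match the GENCODE bounds given above. The Csf2 window, chr11:54249900-54250149, lies apart from those bounds, and the Ltb window, chr17:35194257-35194506, runs into them. Motif distances are counted from the RefSeq starts. The STAT core TTCNNNGAA, searched on both strands, was in 3 of these 8 members, Ifng, Lta and Ltb, against 7.02% of 32851 promoters. Lta had 2 such matches, as did 0.317% of promoters. The 30-base windows are shown because they hold these matches, which are in capitals, 5′ to 3′ on the strand of the gene, with the distance of the first capital from the start site.
Ifng, chr10:118440796-118440825 (plus strand), 249 bases before the start: tTTCAGAGAAtcccacaagaatggcacagg
Lta, chr17:35205484-35205513 (minus strand), 152 bases before the start: accatcactcTTCAGGGAAccaggcttcca
Lta, chr17:35205352-35205381 (minus strand), 16 bases before the start: ggacccgactccctTTCCCAGAAcgcagta
Ltb, chr17:35194325-35194354 (plus strand), 172 bases before the start: ccttccccagTTCAGAGAAcccaggcatcc
The match of Lta at 16 bases overlaps the NFAT core TTTCC that begins 1 base before it. A match is a description of the letters in these windows.

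The other motifs searched were the AP-1 core TGANTCA (in 0 of the 8 members, against 6.75% of promoters), the NFAT core GGAAA (in all 8, against 55.6%) and TATAAA (in 5, against 12.4%). The 250 bases before the start of Tnf are shown because Tnf was the member called between IL-2v and IL-15, and those of Spp1 because its range was the widest. Capitals mark NFAT cores, read as GGAAA or, on the opposite strand, TTTCC, and TATAAA.
Tnf, chr17:35202008-35202257 (minus strand): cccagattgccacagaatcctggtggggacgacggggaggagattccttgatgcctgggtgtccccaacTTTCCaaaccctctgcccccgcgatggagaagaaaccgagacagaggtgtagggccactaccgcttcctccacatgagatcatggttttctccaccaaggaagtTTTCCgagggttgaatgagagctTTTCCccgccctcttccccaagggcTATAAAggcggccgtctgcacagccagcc
Spp1, chr5:104434861-104435110 (plus strand): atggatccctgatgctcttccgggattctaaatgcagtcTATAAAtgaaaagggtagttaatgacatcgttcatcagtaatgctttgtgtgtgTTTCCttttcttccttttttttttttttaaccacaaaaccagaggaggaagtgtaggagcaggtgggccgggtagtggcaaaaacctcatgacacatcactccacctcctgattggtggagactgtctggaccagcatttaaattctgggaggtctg
Tnf held 3 NFAT cores, all on the opposite strand, and TATAAA 29 bases before its start. Spp1 held 1 NFAT core, 157 bases before this start site, and TATAAA at 211 bases, and RefSeq gives it a second start site whose window held 1 NFAT core.

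Ltb, which encodes the membrane-bound partner of lymphotoxin alpha, was highest without cytokine on day 5, and its order over the conditions differed by day. It stood at 714 CPM (702 to 727) in naive cells, 425 CPM without cytokine on day 3 and 1820 CPM (1804 to 1837) without cytokine on day 5, its highest level, where 99.1% of cells had a UMI. With 5 IU/mL on day 5 it was at 1042 CPM with IL-2, 458 CPM with IL-2v and 911 CPM with IL-15. With 50 IU/mL on day 5 it was at 471, 282 and 391 CPM in the same order. On day 10 the 5 IU/mL libraries held 957, 243 and 1192 CPM, and the 50 IU/mL libraries 199, 242 and 527 CPM. On these days the library without cytokine and the 5 IU/mL libraries of IL-2 and IL-15 are the high ones, and both doses of IL-2v are low by day 10. On day 3 the 6 cytokine libraries stayed within 321 to 492 CPM. The highest of that day was 50 IU/mL IL-2 (482 to 503), above the library without cytokine (416 to 433).

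Lta, the secreted lymphotoxin, had its highest level of all libraries already on day 3 with 50 IU/mL IL-2, at 150 CPM (144 to 156), with a UMI in 39.6% of cells. The 50 IU/mL IL-2v library of that day followed at 69.4 CPM (66.1 to 72.9). The other libraries of day 3 and the naive library lay between 7.47 and 10.9 CPM. On day 5 the 50 IU/mL libraries of IL-2 and IL-2v were at 34.5 and 55.9 CPM and all others at 12.2 CPM or less. On day 10 Lta was at 80.8 CPM with 5 IU/mL IL-2, while the 50 IU/mL libraries held 50.5 (IL-2), 25.2 (IL-2v) and 15.6 CPM (IL-15). The 5 IU/mL libraries of IL-2v and IL-15 held 8.39 and 8.49 CPM that day. All 7 libraries above 20 CPM had either 50 IU/mL IL-2 or IL-2v, or were the 5 IU/mL IL-2 library of day 10.

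Tnf, which encodes tumour necrosis factor, was at 6.50 CPM (5.39 to 7.77) in naive cells and at 6.83 and 6.23 CPM without cytokine on days 3 and 5. On day 3 it was at 6.22, 10.6 and 6.66 CPM with 5 IU/mL IL-2, IL-2v and IL-15, and at 27.7, 27.9 and 8.96 CPM with 50 IU/mL. On day 5 the same libraries held 7.93, 13.7 and 5.12 CPM at 5 IU/mL, and 22.3, 30.5 and 8.89 CPM at 50 IU/mL. On day 10 it was at 77.9 CPM (74.7 to 81.1), 15.6 and 2.40 CPM at 5 IU/mL, and at 24.0, 36.1 and 15.2 CPM at 50 IU/mL. The lowest of all libraries, 2.40 CPM (1.81 to 3.12) with 5 IU/mL IL-15 on day 10, lay below naive cells with no overlap of intervals.

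Osm, a cytokine that signals through gp130, ranged from 3.78 CPM without cytokine on day 3 to 55.2 CPM (52.6 to 57.9) with 5 IU/mL IL-2 on day 10. Naive cells had 7.36 CPM (6.18 to 8.71), above the 3.78 CPM (3.01 to 4.67) of day 3 without cytokine. On day 3 it was at 22.0 and 26.4 CPM with 50 IU/mL IL-2 and IL-2v and at 8.15 CPM or less in the other libraries. Its second highest library was 50 IU/mL IL-15 on day 10, at 32.2 CPM (30.3 to 34.2), where the 5 IU/mL library of that day had 3.90 CPM (3.14 to 4.79).

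Fasl was low early and high late. Naive cells had 2.49 CPM and cells without cytokine 2.38 and 5.45 CPM on days 3 and 5. The 6 cytokine libraries of day 3 lay between 3.40 and 8.48 CPM, those of day 5 between 4.01 and 25.8 CPM and those of day 10 between 5.88 and 77.7 CPM. The highest was again 5 IU/mL IL-2 on day 10, at 77.7 CPM (74.6 to 80.9), with a UMI in 27.3% of cells, followed by 50 IU/mL IL-2v on day 10 at 38.7 CPM (36.4 to 41.1). The 5 IU/mL IL-15 library was the lowest of the cytokine libraries on days 3, 5 and 10, though on day 3 its interval overlaps those of 5 IU/mL IL-2, 5 IU/mL IL-2v and 50 IU/mL IL-15.

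Spp1, which encodes osteopontin, was near background in most libraries and abundant in 2. Naive cells had 0.325 CPM, cells without cytokine 0.36 and 0.312 CPM on days 3 and 5, and the 6 cytokine libraries of day 3 between 0.227 and 0.909 CPM. On day 5 it was at 6.80 CPM (5.32 to 8.56) with 50 IU/mL IL-2 and 11.5 CPM (10.1 to 13.1) with 50 IU/mL IL-2v, against 0.499 CPM or less in the other 5 libraries of that day. On day 10 it was at 2064 CPM (2047 to 2081) with 50 IU/mL IL-2, 501 CPM (493 to 510) with 50 IU/mL IL-2v, while the 5 IU/mL libraries held 15.3 CPM (IL-2) and 1.10 CPM (IL-2v), and IL-15 gave 0 CPM at 5 IU/mL and 0.0628 CPM at 50 IU/mL. The highest of these levels depends on the scaling: it was 3240 CPM with totals without ribosomal protein and mitochondrial genes, 2509 CPM with TMM scaling and 1753 CPM as the mean of single cells. The 50 IU/mL IL-2 library of day 10 alone held 56285 of the 70914 Spp1 UMIs, or 79.4%, and Spp1 made up 0.206% of all its UMIs. The sum over the 9 members was 0.239% of UMIs there and 0.0314% to 0.185% in the other libraries.

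The share of cells with a Spp1 UMI was read next. Free RNA was not estimated in these libraries, and its part in such shares was not tested. With each cell thinned at random to 2000 UMIs, which sets cells of unequal depth on 1 footing, 61.2% of cells (59.8% to 62.6%) had a Spp1 UMI with 50 IU/mL IL-2 on day 10 and 25.4% (24.2% to 26.6%) with 50 IU/mL IL-2v. Unthinned, the shares were 70.8% and 35.8%. In those thinned cells 11.8% and 1.70% held 10 or more Spp1 UMIs. The top 5% of cells held 38.1% of the unthinned Spp1 UMIs with IL-2 and 64.6% with IL-2v, with up to 383 and 258 UMIs in 1 cell. With 5 IU/mL IL-2 on day 10, 1.33% of thinned cells had a UMI. The variance of Spp1 UMIs over thinned cells was 9.64 and 9.88 times their mean in the 2 high libraries, where a Poisson spread gives a ratio near unity. On day 10 that ratio was at most 1.20 for Tnf, 1.15 for Osm and 1.12 for Fasl, and it reached 1.43 for Lta and 1.499 for Ltb. For Ifng it reached 1.40. Spp1 thus had the highest ratio among these genes on day 10, but the ratio is not corrected for the mean level. With 50 IU/mL IL-2 that mean was 3.60 UMIs per thinned cell for Spp1, against 0.0997 for Lta and 0.0136 for Ifng. Ltb had means of 2.04 and 2.46 in the 5 IU/mL IL-2 and IL-15 libraries, with ratios of 1.499 and 1.36. Spp1 had its ratio of 9.88 at a lower mean, 0.836 with 50 IU/mL IL-2v. At 5 IU/mL its ratio was 3.39 at a mean of 0.0224 with IL-2 and 0.997 at 0.00294 with IL-2v. Genes were not matched to an equal mean. At the same depth the highest shares of cells with a UMI were 13.3% for Tnf, 9.76% for Osm and 13.97% for Fasl (all with 5 IU/mL IL-2 on day 10), 22.2% for Lta (50 IU/mL IL-2, day 3), 94.7% for Ltb (no cytokine, day 5), 1.13% for Ifng (50 IU/mL IL-2, day 10) 1.05% for Il2 (50 IU/mL IL-2, day 5) and 0.95% for Csf2 (that dose of IL-2v, day 10).

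**Figure D2:**
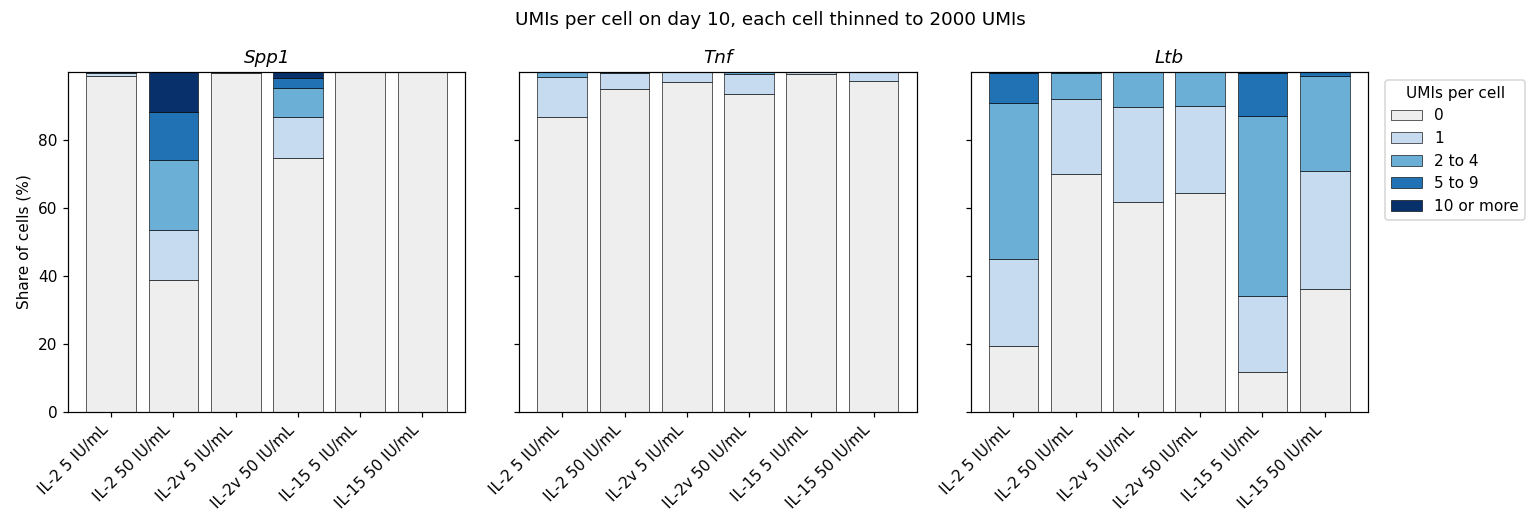
Share of cells (%) by their number of UMIs of Spp1, Tnf and Ltb in the 6 libraries of day 10, with each cell thinned to 2000 UMIs; bars add up to all cells of that depth. Spp1 is in 61.2% and 25.4% of cells with 50 IU/mL IL-2 and IL-2v and in no thinned cell with IL-15, while Ltb is in 30.2% of cells of the 50 IU/mL IL-2 library and in 88.3% of the 5 IU/mL IL-15 library.

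Osteopontin is also a product of macrophages and bone cells, so markers of those cells were read beside it. In the 2 libraries with high Spp1, the macrophage genes Lyz2, Csf1r, Adgre1 and C1qa were at 0 CPM and Cd14 was at 0.623 and 0.256 CPM. The myeloid list (12 genes listed) summed to 238 CPM with 50 IU/mL IL-2 on day 10, the highest of all libraries, and to 157 CPM with 50 IU/mL IL-2v on day 10. Cst3 was at 107 and 104 CPM, inside its range of 61.0 to 126 CPM over all libraries, and Cd68, a macrophage gene, at 14.9 CPM, its highest value, and 5.61 CPM. Without Cst3, Fcer1g and Cd68 the list summed to 3.01 and 3.30 CPM there, within the 0.901 to 7.53 CPM of all libraries. That split was not part of the planned list. Fcer1g and Cd68 both had their highest value with 50 IU/mL IL-2 on day 10, so the sum without them describes the other genes only. Fcer1g, also a gene of activated killer cells, was at 113 and 44.3 CPM in these libraries, 16.9 CPM with 5 IU/mL IL-2 on day 10 and 6.52 CPM or less elsewhere. Thinned to 2000 UMIs, 88.3% of Spp1-positive cells with 50 IU/mL IL-2 had Cd3d against 91.4% of the others, 18.9% against 25.3% had Cd8a and 27.4% against 32.5% had Cd8b1. Of the 5 libraries with enough Spp1-positive cells, Cd3d was less frequent in those cells in 1, Cd8a in 3 and Cd8b1 in 2, and none of these genes was more frequent. Unthinned, Cd3d was in 98.4% of Spp1-positive cells against 96.8% of the others with 50 IU/mL IL-2, and Cd8a or Cd8b1 in 70.2% against 66.5%. In the same unthinned cells, a UMI of any of 6 macrophage genes was found in 16 of 3493 Spp1-positive cells and in 1 of 1444 others, where Spp1-positive cells were deeper (median 5644 against 3882 UMIs). With 50 IU/mL IL-2v on day 10 it was 7 of 1824 against 0 of 3266 (median 5793.5 against 4528 UMIs). Cd14 had a UMI in 0.344% and 0.138% of all cells of these 2 libraries. It was at 0 CPM in every other library but that of naive cells. The part of such cells in the Spp1 levels was not tested. The NK cell list was also highest there, at 5490 CPM, of which Gzma, a granzyme of killer T cells as well, made 5352 CPM, and the NK receptor gene Ncr1 was at 0. Klrb1c, another NK receptor gene, was at 21.3 and 36.7 CPM in these 2 libraries, 22.002 CPM with 5 IU/mL IL-2 on day 10 and at most 3.57 CPM elsewhere, and its part in the Spp1 levels was not tested. The bone and fibroblast list summed to at most 0.55 CPM in any library. Cells were set apart as carrying markers of other lineages by 2 criteria. These were 2 or more markers of B, myeloid, dendritic or erythroid cells, or a Cd4 UMI without a Cd8a or Cd8b1 UMI. Such cells were 14.1% of the 50 IU/mL IL-2 library of day 10 and at most 5.91% elsewhere. Without them, Spp1 stood at 1854 CPM in that library. The part of Fcer1g, Cst3 and Cd68 in that rule was not tested.

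Differences between libraries are given as log2(CPM + 1) of one library minus another, which shrinks the differences of scarce genes. The 2 libraries of a pair had equal day and dose, except for the one of these that was compared. A gene was tested in a comparison where it averaged 20 CPM or more in either arm, and called where all its pairs had the same sign and the median was 1 or more in size, a 2-fold difference. The pairs of a comparison differ in day and dose and do not replicate each other, and the 3 cytokine comparisons share libraries with each other. Ifng, Il2 and Csf2 passed the 20 CPM filter in no comparison. Tnf, Lta, Osm, Fasl and Spp1 often passed it through 1 arm only, so that a difference was built into their being tested and their counts describe these libraries and support nothing further.

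IL-2v against IL-2 gave no called member among the 5 tested, beside 1.04% of 5839 genes called higher and 0.274% called lower. Tnf was higher with IL-2v in 5 of 6 pairs, by 0.69 and 0.01 on day 3, 0.72 and 0.44 on day 5 and 0.57 at 50 IU/mL on day 10, and lower by 2.25 at 5 IU/mL on day 10 (values at 5 and 50 IU/mL in turn). Ltb was lower in 5 of 6 pairs, with a median of −0.57. Lta had a median of −0.56, from −3.12 at 5 IU/mL on day 10 to 0.68 at 50 IU/mL on day 5. Fasl split evenly, 3 pairs each way. Across the members, the pair at 5 IU/mL on day 10 stands apart. There the IL-2 library exceeded the IL-2v library for all 9 members, and the intervals of the fold excluded 1 for all but Il2 and Csf2.

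Spp1 behaved differently by day in this comparison. At 50 IU/mL it was 1.69-fold higher with IL-2v (1.30 to 2.24) on day 5 and 4.12-fold lower (4.04 to 4.19) on day 10. At 5 IU/mL on day 10 it was 13.8-fold lower with IL-2v, with a lower bound of 9.84. The order of the 2 cytokines at 50 IU/mL thus turned between days 5 and 10.

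IL-15 against IL-2 gave 3 members called lower among 5 tested, where 1.7% of 5718 genes were called lower and 0.49% higher. Lta had a median of −1.63, with −3.74, −1.63 and −1.64 at 50 IU/mL on days 3, 5 and 10 and −0.19, −0.50 and −3.11 at 5 IU/mL. Fasl had a median of −1.18 and ran from −0.01 (5 IU/mL, day 3) to −3.52 (5 IU/mL, day 10). Spp1 had a median of −1.33, but the 2 middle pairs it averages lie far apart, at −0.12 and −2.54. Its call also rests on the sign of pairs with few UMIs and overlapping intervals. With IL-15 and IL-2 in turn these had 5 and 6 UMIs (5 IU/mL, day 3), 16 and 15 (50 IU/mL, day 3) and 13 and 10 (5 IU/mL, day 5). The 3 large Spp1 differences were the 50 IU/mL pair of day 5, where IL-15 was 19.8-fold lower (9.53 to 47.6), the 5 IU/mL pair of day 10, where it was at least 118.5-fold lower against a floor of 3 UMIs in the IL-15 library, and the 50 IU/mL pair of day 10. In that last pair the IL-15 library had 2 UMIs, which gives an IL-2 to IL-15 ratio of 32879 with a counting interval of 9101 to 271497. Tnf was lower with IL-15 in 5 of 6 pairs (median −0.93), and Ltb was lower in the 4 pairs of days 3 and 5 and higher in both pairs of day 10, by 0.32 and 1.40. Without the 5 IU/mL IL-2 library of day 10, an alternative chosen after seeing the data, 1 member (Lta, median −1.63) remained called, Spp1 had a median of −0.12, and Fasl, with a median of −1.09, no longer passed the 20 CPM filter. Lta was also the 1 member called with a pseudocount of 10 CPM (Fasl −0.52, Spp1 −0.36), with at most 5% mitochondrial UMIs, without the cells with markers of other lineages, and without day 10.

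IL-2v against IL-15 gave 1 member called higher of 4 tested, where 2.48% of 5810 genes were called higher and 0.585% lower. Tnf was higher with IL-2v in all 6 pairs, by 0.60 to 2.28 with a median of 1.40, at a mean of 22.4 CPM against 7.87 CPM. With a pseudocount of 10 CPM its median was 0.94 and no member was called. Lta was higher mainly at 50 IU/mL, by 2.64, 2.31 and 0.66 on days 3, 5 and 10, while at 5 IU/mL its differences were 0.05, 0.79 and −0.02. Fasl was not tested, at means below 20 CPM in both arms, and its 6 differences ran from 0.42 to 1.57, all higher with IL-2v. Ltb was lower with IL-2v in the 4 pairs of days 5 and 10 (−0.47 to −2.29) and higher in those of day 3 (0.14 and 0.20). Spp1 was 33.5-fold higher with IL-2v (16.8 to 78.6) at 50 IU/mL on day 5 and at least 8.57-fold higher at 5 IU/mL on day 10. At 50 IU/mL on day 10, where the IL-15 library had 2 UMIs, the ratio was 7990 (2211 to 65980). At 5 IU/mL on day 5 it was at 0.217 CPM with IL-2v and 0.435 CPM with IL-15, and in this pair and both pairs of day 3 the interval of the ratio included 1.

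**Figure D3:**
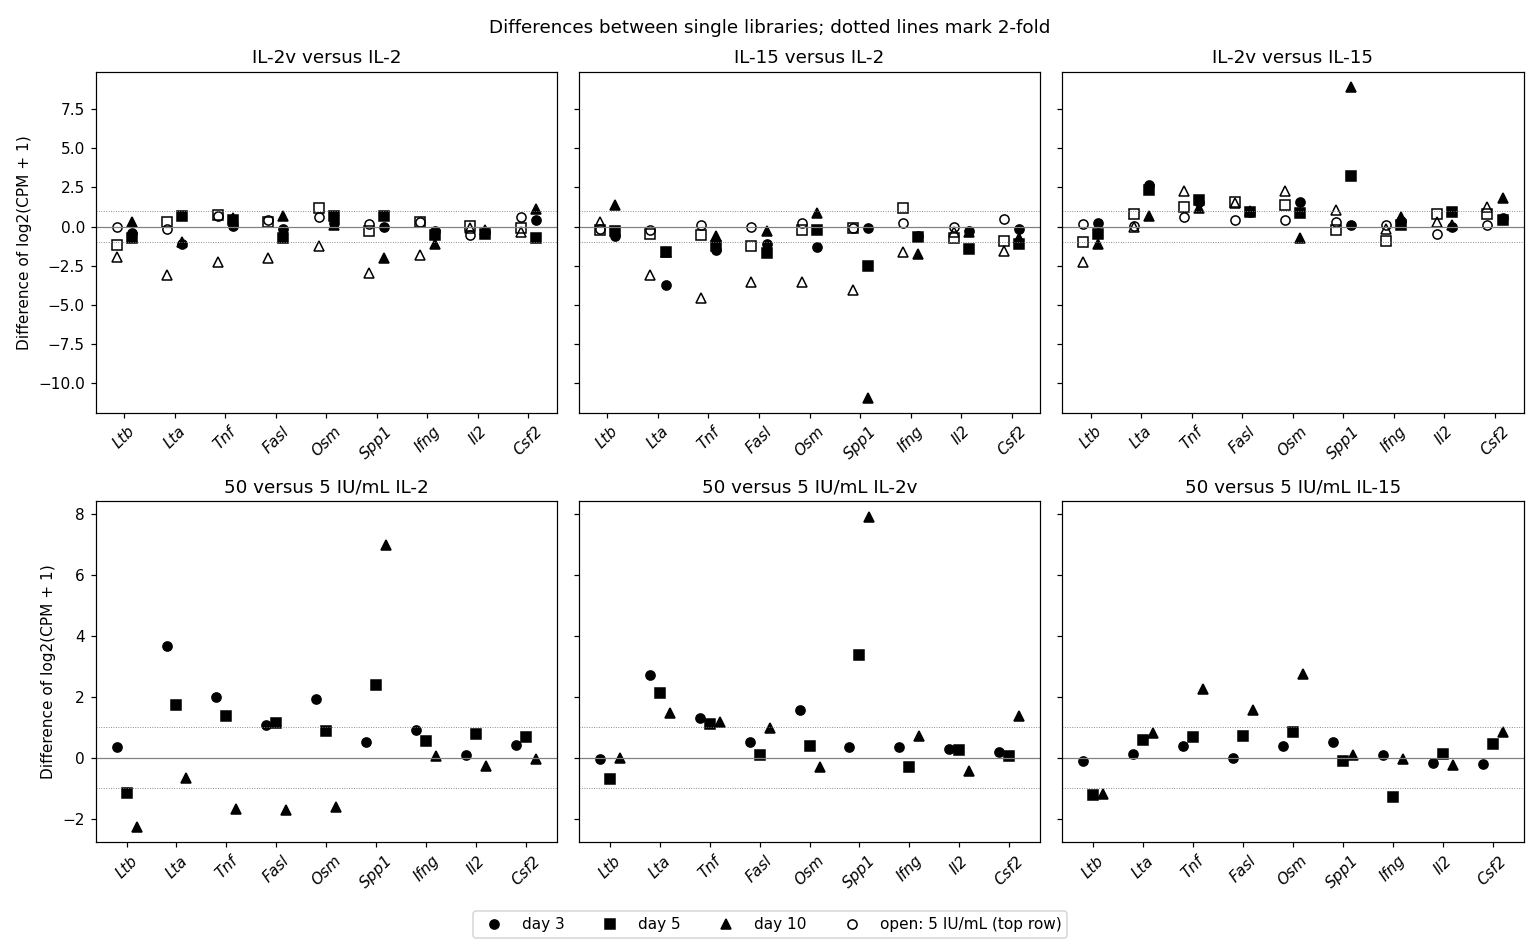
Differences of log2(CPM + 1) for each of the 9 genes (horizontal axis) in each pair of libraries; the top row compares cytokines, with open points for 5 and filled points for 50 IU/mL and the day by marker shape, and the bottom row compares 50 with 5 IU/mL of each cytokine. Dotted lines mark a 2-fold difference. Tnf lies above 0 in all 6 pairs of IL-2v against IL-15, and Spp1 reaches 6.99 and 7.90 in the dose pairs of IL-2 and IL-2v on day 10.

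Dose was compared as 50 against 5 IU/mL on the same day. With IL-2, 1 member was called of 6 tested, Spp1, which was higher by 0.52, 2.38 and 6.99 on days 3, 5 and 10. The background was 4.29% of 5879 genes called higher and 2.7% lower. As a ratio of CPM this was 13.6-fold (7.00 to 29.6) on day 5 and 135-fold (123 to 149) on day 10. Tnf, Lta, Osm and Fasl were all higher at 50 IU/mL on days 3 and 5 and all lower on day 10. Their differences on days 3, 5 and 10 were 1.99, 1.38 and −1.66 for Tnf, 3.67, 1.73 and −0.67 for Lta, 1.93, 0.88 and −1.61 for Osm, and 1.10, 1.15 and −1.69 for Fasl. Ltb was also tested. At 50 IU/mL it was higher on day 3 (492 against 384 CPM) and lower on day 5 (471 against 1042) and day 10 (199 against 957). It was not called, since its signs differed. The day 10 values rest on the 5 IU/mL IL-2 library in which Tnf, Osm and Fasl were highest of all. Without that library, which leaves the pairs of days 3 and 5, 2 members were called, Tnf (median 1.69) and Lta (2.70), and Spp1 was not tested, at means below 20 CPM. The share of all genes called over these pairs was not computed. With a pseudocount of 10 CPM the Spp1 median was 0.68, and no member was called.

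With IL-2v, 3 members of 6 tested were called higher at 50 IU/mL, against a background of 2.38% of 5913 genes called higher and 0.626% lower. Tnf was higher by 1.32, 1.10 and 1.16 on days 3, 5 and 10, a nearly constant step, and with a pseudocount of 10 CPM its median of 0.85 was no longer called. Lta was higher by 2.71, 2.11 and 1.48. Spp1 was higher by 0.35, 3.36 and 7.90, with ratios of 53.1 (20.5 to 196) on day 5 and 455 (328 to 650) on day 10. Fasl was higher by 0.53, 0.09 and 0.99, short of the 2-fold median, and Ltb was lower by 0.70 on day 5 with differences of −0.03 and −0.00 on the other days.

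With IL-15, Ltb was the 1 member tested and was called lower at 50 IU/mL, by −0.09, −1.22 and −1.18 on days 3, 5 and 10, where 0.181% of 5523 genes were called lower and 0.869% higher. Without day 5 or without day 10 its median was −0.63 and −0.66, and it was not called. The other members were below 20 CPM on average. Tnf, Osm and Fasl were higher at 50 IU/mL on all 3 days, by 0.38, 0.69 and 2.25 for Tnf, 0.39, 0.86 and 2.76 for Osm and 0.01, 0.73 and 1.57 for Fasl on days 3, 5 and 10. The intervals of these ratios excluded 1 except for Fasl on day 3. Whether the dose effect differed between cytokines was not tested, since no condition was repeated.

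Time was read for each cytokine and dose. No member was called from day 3 to day 5 (2 tested, background 0.829% higher and 2.22% lower of 5912 genes) or from day 5 to day 10 (6 tested, 0.0705% higher and 1.62% lower of 5676 genes). Fasl was higher on day 5 than on day 3 in all 6 series, by between 0.19 and 1.498, but at means below 20 CPM on both days. From day 5 to day 10 Fasl was higher in 5 of 6, with a median of 0.87. With 5 IU/mL IL-2 the 4 genes Tnf, Lta, Osm and Fasl stood 3.14, 2.93, 2.90 and 2.70 higher on day 10 than on day 5, the largest such difference of each over the 6 series. Spp1 was higher on day 10 by 3.44 at 5 IU/mL and 8.05 at 50 IU/mL with IL-2, by 0.79 and 5.33 with IL-2v, and it was lower by 0.52 and 0.34 with IL-15, where all 4 libraries had 13 UMIs or fewer.

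Activation without cytokine was compared with naive cells. On day 3 Ltb, the 1 member tested, was lower by 0.75 and not called, where 11.1% of 6171 genes were called higher and 8.31% lower. Osm was lower by 0.81 and Ifng by 0.65 at low levels, and the fold intervals of the other 6 members included 1. From day 3 to day 5 without cytokine Ltb was 4.29-fold higher (4.19 to 4.38) and called, where 3.61% of 5785 genes were called higher and 9.47% lower. Ifng was higher by 1.39 over the same days, though 26 of its 87 UMIs on day 5 were in 1 cell.

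Each cytokine library was then set against the library without cytokine of its day, a control that the 6 comparisons of a day share. On day 3 all calls came from 50 IU/mL. IL-2 at 50 IU/mL had 3 members called higher of 4 tested (6.45% of genes higher): Tnf 4.06-fold (3.37 to 4.91), Lta 19.4-fold (16.6 to 22.8) and Osm 5.82-fold (4.58 to 7.48). IL-2v at 50 IU/mL had the same 3 called of 4 tested (7.83%), at 4.09-fold (3.42 to 4.91) for Tnf, 8.98-fold (7.67 to 10.6) for Lta and 6.99-fold (5.56 to 8.88) for Osm. IL-2 at 50 IU/mL had 2.74% and IL-2v 1.75% of all genes called lower. In the other 4 libraries of day 3 Ltb alone was tested and was not called, at −0.14 with 5 IU/mL IL-2 (0.142% of genes higher, 0.106% lower) and −0.17 in the IL-2v library of that dose (0.211% higher, 0.0704% lower). It was at −0.31 in the 5 IU/mL IL-15 library (0.142% higher, 0.285% lower) and −0.40 in the 50 IU/mL IL-15 library (0.819% higher, 0.261% lower).

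On day 5 the calls at 50 IU/mL were joined by lower Ltb. IL-2 at 50 IU/mL had Tnf 3.58-fold, Lta 3.40-fold and Fasl 4.73-fold higher and Ltb 3.87-fold lower, 4 calls of 4 tested (16.5% of genes higher, 7.54% lower). IL-2v at 50 IU/mL had Tnf 4.90-fold, Lta 5.51-fold and Osm 3.91-fold higher and Ltb 6.45-fold lower (6.28 to 6.63), also 4 of 4 (21.1% higher, 5.53% lower). Ltb was called lower in 2 further libraries, 3.97-fold with 5 IU/mL IL-2v (9.75% of genes higher, 2.62% lower) and 4.65-fold with 50 IU/mL IL-15 (5.82% and 1.9%). With 5 IU/mL IL-15 Ltb was lower by 0.997, just short of a call (1.42% of genes higher, 0.321% lower), and with 5 IU/mL IL-2 by 0.80 (2.14% and 0.36%). Ltb was thus lower than in the library without cytokine in all 6 libraries of day 5, at either dose.

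Within a library, cells that carried 1 member were compared with cells that did not, at 2000 UMIs per cell, where a cell's total is fixed so that more of one transcript leaves less room for others. Shares are called higher or lower where their exact 95% intervals do not overlap. Over 968 comparisons, each of 1 member in cells with and without another, 26 were higher and 17 lower. A pair of members could enter in both directions, so these are not counts of separate pairs. For example, Lta by Tnf was higher in 5 libraries and Tnf by Lta in 4, and both entered the 26. No share over other gene pairs is given beside these counts, which are a description only. For Tnf and Lta, neighbours in the genome, Lta was detected more often in Tnf-positive cells in 5 of 21 libraries and less often in none. With 5 IU/mL IL-2 on day 10, 20.8% (18.1% to 23.8%) of Tnf-positive cells had Lta against 12.6% (11.7% to 13.5%) of the others. With 50 IU/mL IL-2v on day 5 the shares were 15.7% and 9.18%, and with 50 IU/mL IL-2 on day 5 they were 11.8% and 5.46%. Lta was also more frequent in Osm-positive cells with 5 IU/mL IL-2 on day 10, at 22.1% against 12.8%.

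Fasl differed in few libraries by the presence of these members: of 21 libraries it was less frequent in Lta-positive cells in 1, less frequent in Osm-positive cells in 1 and more frequent in Tnf-positive cells in 1. In that same 5 IU/mL IL-2 library, Fasl was found in 10.7% of Lta-positive cells against 14.5% of the others, and in 10.3% of Osm-positive cells against 14.4%. Cells with Gzma, the gene of granzyme A, had Fasl in 19.7% against 12.2%, and had Lta in 9.27% against 15.1% and Osm in 5.88% against 11.0%. In that library Fasl was thus less frequent in the cells that carried Lta or Osm, and more frequent in those that carried Gzma. Over all libraries Fasl was more frequent in cells with Ccl5, a chemokine of memory and effector CD8 T cells, in 11 of 21 and less frequent in none, and Ifng in 8 of 21 and in none. In naive cells, the 447 Ccl5-positive cells had Fasl in 3.80% and Ifng in 2.68%. Over all 4471 thinned naive cells the shares were 0.447% (20 cells) and 0.313% (14 cells), so most naive cells with either gene were Ccl5-positive. Ltb was less frequent in cells with Mki67 or Top2a, genes of dividing cells, in 13 of 21 libraries and more frequent in none, as with 5 IU/mL IL-2 on day 10, at 67.7% against 82.4%. Spp1 was less frequent in dividing cells in 2 libraries, Fasl and Lta in 1 each, and Ifng was more frequent in 1. No such counts were made over all genes, so those by Ccl5 and by dividing cells are a description only.

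Spp1 was more frequent in cells with Gzmd in all 3 libraries compared, in cells with Gzma in 4 of 21 and in cells with Gzmb in 2 of 21, and less frequent in none. Counts of libraries in this paragraph also have no share over all genes beside them. With 50 IU/mL IL-2 on day 10, Spp1 was in 80.2% (78.5% to 81.7%) of Gzmd-positive cells and 41.8% (39.8% to 43.8%) of the others. With 50 IU/mL IL-2v on day 10 the Spp1 shares were 69.7% (65.2% to 73.9%) and 20.99%. The same direction was seen with 5 IU/mL IL-2 on day 10, at 33.3% of only 24 Gzmd-positive cells against 1.20%. Spp1 was less frequent in cells with Ltb (47.8% against 67.0% with 50 IU/mL IL-2, 18.9% against 28.9% with 50 IU/mL IL-2v) and in cells with Lta (49.6% against 62.2%, and 15.7% against 25.8%). Cells with Ccl5 also had Spp1 less often in the 50 IU/mL IL-2 library of day 10, as did dividing cells, at 54.3% against 61.8%. Spp1 was also more frequent in the cells set apart above by markers of other lineages (counted before thinning) in 7 of 21 libraries and less frequent in none. The shares on day 10 were 74.5% against 58.9% with 50 IU/mL IL-2 and 45.7% against 24.1% with 50 IU/mL IL-2v. It was less frequent in cells with Cd8a and with Cd8b1 in 2 of 21 libraries each and more frequent in none. The part of these marker genes in the Spp1 shares was not tested.

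**Figure D4:**
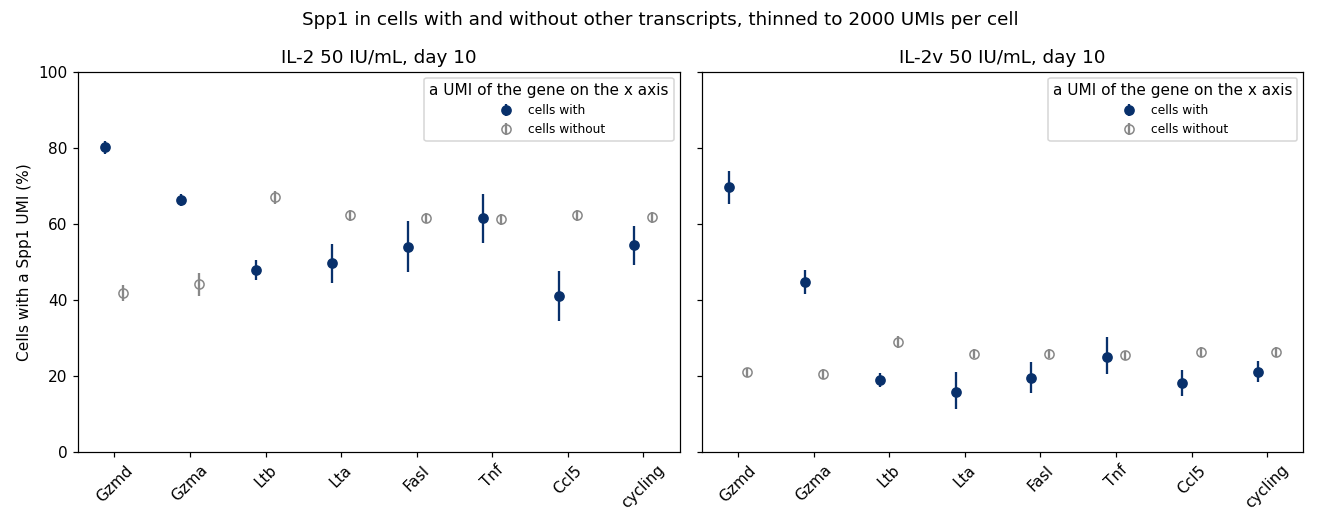
Share of cells with a Spp1 UMI (%) among cells with and without a UMI of each gene named on the axis, or of Mki67 or Top2a (cycling), in the 50 IU/mL IL-2 and IL-2v libraries of day 10, each cell thinned to 2000 UMIs; bars are exact binomial 95% intervals. Spp1 is in 80.2% of Gzmd-positive and 41.8% of Gzmd-negative cells with IL-2, and lower in Ltb-positive than in Ltb-negative cells in both libraries.

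The genes most like each member over the 21 libraries were read among 7270 genes that reached 20 CPM, by Pearson's r of log2(CPM + 1), as a description of points that share culture conditions and differ in depth. Ifng, Il2 and Csf2 did not reach 20 CPM and were left out. Spp1 was most like Gzmd (0.98) and Gzmg (0.98), both granzyme genes, and Tnfrsf11b (0.98), which encodes the decoy receptor osteoprotegerin. Gzmd stood at 3602 CPM with 50 IU/mL IL-2 on day 10, 424 CPM with 50 IU/mL IL-2v on day 10 and 14.2 CPM with 5 IU/mL IL-2 on day 10, the same 3 libraries that were highest for Spp1. Tnf was most like Herpud1 (0.95), Cish (0.91), an inhibitor of cytokine signalling induced by STAT5, and Osm (0.90). Osm was most like Cish (0.91), Jaml (0.90) and Tnf (0.90). Fasl was most like Rab27b (0.93), which works in granule release, Ifitm1 (0.91) and Runx2 (0.90), Lta most like Dcun1d3 (0.90), Hemk1 (0.89) and Tes (0.85), and Ltb most like Polb (0.93), Rnf170 (0.91) and Chic2 (0.91).

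Genes around the members were read as 8 lists: their receptors, transcription factors of effector cytokines, decay factors of AU-rich mRNAs, other TNF family ligands, other T cell cytokines, and the responses to interferon gamma, NF-kB and STAT5. Between IL-2v and IL-2 none of the lists had a called gene. In IL-15 against IL-2, where 1.7% of all tested genes were called lower and 0.49% higher, 2 of 9 tested STAT5 response genes were called lower, Cdkn1a (−3.92), a cell cycle inhibitor, and Il2ra (−1.66), the alpha chain of the IL-2 receptor, and none higher. Among 20 transcription factors, Bhlhe40 (−2.62), Fosl2 (−2.39) and Prdm1 (−1.18) were called lower and none higher. IL-2v against IL-15 (2.48% of genes higher, 0.585% lower) had Cish (1.92), Cdkn1a (1.65) and Il2ra (1.25) called higher of 9 STAT5 response genes, and Bhlhe40 (2.002) and Prdm1 (1.15) of 19 transcription factors. The chemokine gene Ccl5 was lower with IL-2v by 1.71.

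Dose called genes of the same lists. With IL-2 (4.29% of genes higher, 2.7% lower), Cdkn1a (2.93) and Il2ra (1.71) were higher at 50 IU/mL of 9 STAT5 response genes, Fosl2 (3.17), Bhlhe40 (1.75) and Prdm1 (1.68) of 20 transcription factors, and Ccl5 was lower by 2.79. The other tested STAT5 response genes, Cish, Socs1, Socs2, Socs3, Pim1, Pim2 and Bcl2, were higher at 50 IU/mL IL-2 on day 3 and lower on day 10. On day 10 Cish was at 163 against 377 CPM, Socs1 at 71.9 against 524 and Bcl2 at 333 against 1173. The 5 IU/mL IL-2 library of day 10 was the highest of all libraries for these last genes. In the interferon gamma response 6 of 13 tested genes were called lower at 50 IU/mL IL-2, led by the GTPase genes Ifi47 (−1.72), Iigp1 (−1.68), Irgm1 (−1.35) and Gbp2 (−1.26), while Ifng itself differed by 0.92, 0.57 and 0.06 on days 3, 5 and 10. With IL-2v (2.38% higher, 0.626% lower), Cdkn1a (3.73), Il2ra (1.33) and Cish (1.10) were higher of 8 STAT5 response genes, Prdm1 (1.65) and Fosl2 (1.38) of 20 transcription factors, and Ifi47 was lower by 1.03. With IL-15 (0.869% higher, 0.181% lower), Socs2 (1.55), Il2ra (1.11) and Pim1 (1.10) were higher of 8 STAT5 response genes, and Bhlhe40 (1.31) and Eomes (1.02) of 18 transcription factors. Itgav, a chain of integrins that bind osteopontin, was higher at 50 IU/mL by 1.48 with IL-2 and 1.01 with IL-2v. Itga4, another such chain, was lower at 50 IU/mL IL-2 by 1.56, higher with IL-15 than with IL-2 by 1.07 and lower with IL-2v than with IL-15 by 1.07. The NF-kB response and mRNA decay lists had no called gene in comparisons between cytokines or between doses. Against no cytokine on day 5, between 1 and 5 of 9 tested NF-kB response genes were called lower in each of the 6 cytokine libraries, and 1 was called higher (50 IU/mL IL-2), where 0.321% to 7.54% of all genes were called lower. These 6 comparisons share 1 control library, in which 4 of 9 NF-kB response genes were called higher than on day 3 without cytokine (3.61% of genes higher).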

How the data were processed

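The deposited files hold UMI counts per gene and cell, 1 file for each of 21 libraries, made by the authors with Cell Ranger, Seurat 3.0.2 and 4.0.1 and the mm10 build, per the submitters' processing notes. The Cell Ranger version, the annotation, the library kit and the treatment of doublets are not given in the sources used here. A cell needed 1000 UMIs and 500 genes, with mitochondrial UMIs up to 10%, which removed 2 cells, and no doublet caller was run. UMIs were summed per library and scaled to CPM, with log2(CPM + 1) differences, a filter of 20 CPM and a threshold of 2-fold. Exact Poisson, binomial and conditional ratio intervals (95%) cover counting error only. Python 3.11.15, numpy 2.4.6, scipy 1.17.1, pandas 2.3.3, matplotlib 3.10.9 and R 4.3.3 were used, and edgeR 4.0.16 served for TMM scaling alone. The calling steps were tested on simulated data. Those data held counting error only, with changes larger than the threshold in genes well above the filter. They cannot show whether calls near the threshold would hold in repeated libraries. All 9 members were followed. At most 4 called genes per list were named, and the 3 genes most like each member that reached 20 CPM in a library. Members and lists were chosen with earlier results of these data known. No protein sequence was used here. Alternatives in scaling, pseudocount, filter, cell selection and days were computed.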

Additional observations from a re-analysis of the deposited data

Results flagged for a closer look

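Some members moved one way over time in both doses of one cytokine and the other way in both doses of another. None of these differences between cytokines was tested, since each condition had 1 library, and all values are log2(CPM + 1) differences at 5 and 50 IU/mL in turn. From day 5 to day 10, Lta moved by 2.93 and 0.54 with IL-2 and by 0.32 and 0.53 with IL-15, but by −0.49 and −1.12 with IL-2v. Over the same days Ltb moved by −0.12 and −1.24 with IL-2 and by −0.91 and −0.22 with IL-2v, but by 0.39 and 0.43 with IL-15. Spp1 moved by 3.44 and 8.05 with IL-2 and by 0.79 and 5.33 with IL-2v, but by −0.52 and −0.34 with IL-15, where its counts were at or near the floor. From day 3 to day 5, Il2 moved by 0.51 and 0.47 with IL-2v and by −0.76 and −0.48 with IL-15, at levels of 2.60 CPM or less.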

How the results depend on the processing

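Recomputed counts of called members stayed within 1.5 times the reported count in 110 cases and not in 20. These counts add calls in both directions, so they can stay the same where other members are called. For the IL-15 dose without day 5 the count stayed at 1, though Ltb was no longer called. IL-2v against IL-2 went from 0 to 1 without day 5. IL-15 against IL-2 went from 3 to 1 with a pseudocount of 10 CPM, with at most 5% mitochondrial UMIs, without cells with markers of other lineages, without day 10, and without the 5 IU/mL IL-2 library of day 10 (chosen after seeing the data). IL-2v against IL-15 went from 1 to 0 with a pseudocount of 10 CPM, 3 without day 3 and 2 without day 10. The IL-2 dose count went from 1 to 0 with a pseudocount of 10 CPM and to 2 without day 3, without day 10 or without the library named above. The IL-15 dose count went from 1 to 2 without day 3 and 0 without day 10. Day 5 against day 3 went from 0 to 1 with totals without ribosomal protein and mitochondrial genes, and to 1 with no filter. Day 10 against day 5 went from 0 to 1 with TMM scaling. With no filter, day 5 against day 3 without cytokine went from 1 to 2 and cytokine against no cytokine on day 5 from 10 to 22. The cause of these changes was not tested. Apart from the scalings given below, the share of all genes called was not computed under these alternatives. In the 5 IU/mL IL-2 library of day 10, the share of Tnf-positive cells among cells with minus cells without Fasl was 1.67 percentage points at 2000 UMIs and −0.73 at 1000. Of 478 recomputed medians of members, 441 kept their side of the call, 22 lost it, 15 gained it, and 0 called ones changed sign. TMM scaling changed the calls over all genes from 61 higher and 16 lower to 36 and 25 (IL-2v against IL-2), from 144 and 34 to 87 and 53 (IL-2v against IL-15), and from 141 and 37 to 101 and 57 (IL-2v dose). It also changed them from 49 and 131 to 67 and 89 (day 5 against day 3), from 4 and 92 to 9 and 69 (day 10 against day 5), and from 209 and 548 to 297 and 484 (day 5 against day 3 without cytokine). Scaled to totals that omit mitochondrial and ribosomal protein genes, the calls were 52 and 102 instead of 28 and 97 (IL-15 against IL-2), 124 and 72 (IL-2v against IL-15), 275 and 268 instead of 252 and 159 (IL-2 dose), 157 and 58 (IL-2v dose), 76 and 150 (day 5 against day 3), 12 and 128 (day 10 against day 5), and 817 and 812 instead of 684 and 513 (day 3 without cytokine against naive). TMM scaling moved the median difference of all tested genes from 0.10 to −0.03 for the IL-2v dose, from −0.10 to 0.01 for day 5 against day 3, from −0.09 to 0.06 for day 10 against day 5 and from −0.00 to 0.12 for day 5 against day 3 without cytokine, and the other totals moved it from 0.10 to −0.00 for IL-2v against IL-15. Spp1 in its highest library ranged from 1753 to 3240 CPM over the alternatives. Levels of all members in their highest library, shares of cells with a UMI, and differences between cells with and without a gene were also recomputed. Of these values, 46 fell outside the counting interval of the main value, so those intervals do not cover the choice of processing. Libraries were matched by day and dose, with 1 library per condition, and no test over these pairs was run. Depth limits Ifng, Il2, Csf2 and, outside 5 libraries, Spp1, whose differences rest on few UMIs.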
